A study of Mus musculus with 2 samples.

Results

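The genes of 10 transcription factors that are known for their roles in blood vessel endothelium were followed in S100A4+ cells of mouse lung: Sox7, Sox17, Sox18, Erg, Fli1, Ets1, Tal1, Lmo2, Epas1 and Mef2c. They were chosen by name, and every probe that the array's annotation assigns to 1 of these symbols was taken. This gave 19 probes for 10 genes, out of 23978 named probes for 16590 genes. The cells were sorted by flow cytometry from lungs of BALB/c mice that carry an S100A4-GFP transgene, whose green fluorescence was used to sort S100A4+ cells. One group was normal lung. The other was metastatic lung of transgenic mice that bore 4T1 tumours, from a mammary carcinoma line of the same strain. Each group had 1 Illumina bead array of amplified total RNA, so that no test could be made, and a difference between conditions cannot be told apart from one between arrays. The sources used here give neither the animals' age, nor how many animals stand behind an array, nor whether their RNA was pooled. S100A4, a calcium-binding protein, is found in fibroblasts and also in many leukocytes, so that a sort on it can hold several cell types.

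SOX7, SOX17 and SOX18 form the SOXF group of HMG-box proteins, which bind DNA through a short ACAAT core and act in vessel formation and arterial identity. ERG, FLI1 and ETS1 are ETS factors, which bind a GGAA core found in the regulatory DNA of most endothelial genes. TAL1 is a basic helix-loop-helix protein that binds E-boxes, and LMO2 is the LIM-domain protein that bridges it to GATA factors. EPAS1, also called HIF-2alpha, is the hypoxia-inducible factor subunit that is abundant in endothelium, and MEF2C is a MADS-box factor that controls genes of vascular development. Several of these genes are not confined to vessels: Fli1, Ets1, Tal1, Lmo2 and Mef2c are also used in blood cells, and Epas1 in alveolar epithelium.

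Some of these genes were lower in the metastatic-lung cells and others were not. Epas1 was 9.68-fold and Ets1 2.68-fold lower. Sox17 was at least 3.42-fold and Erg at least 2.23-fold lower. These bounds hold for the processing used here: in the authors' processed values, which keep a constant in the signal, Sox17 was 2.42-fold and Erg 1.64-fold lower, and Erg missed the 2-fold line in 4 of 9 alternative settings. Sox7 and Sox18 were detected in the normal-lung cells and were at background in the metastatic-lung cells. Mef2c was 1.93-fold lower by its brightest probe, whereas Fli1 and Lmo2 differed little between the arrays and Tal1 was detected on neither.

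Each probe has a deposited signal in intensity units, which still contains background, and a detection p, which is low for probes brighter than nearly all negative controls of their array. A probe was called detected at a detection p below 0.01. For normal lung, the estimated background was 58.3 with an SD of 7.04, and for metastatic lung it was 54.5 with an SD of 7.56. The faintest detected probe had a signal of 82.2 for normal and 78.0 for metastatic lung. Ratios below are metastatic over normal lung, from background-corrected and quantile-normalized log2 levels. For a gene with detection on a single array, the fold is a lower bound ("at least"), set against the lowest detected level of the other array. A gene with several probes is represented by the brightest on average.

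Of the 19 probes, normal lung gave 16 detected ones and metastatic lung 7, and all 7 were among the 16. The deposited signal was lower on the metastatic-lung array for 18 of the 19, all but the Tal1 probe, and it was lower for 66.8% of all named probes, on an array with a lower median signal (66.1 against 72.2). Of the 10 genes, both arrays detected 5, the normal-lung array alone detected 4, and neither detected 1. Over all 16590 genes, 41.6% were detected on both arrays and 4.94% on the normal-lung array only. The plot of signals by probe shows these values.

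**Figure D1:**
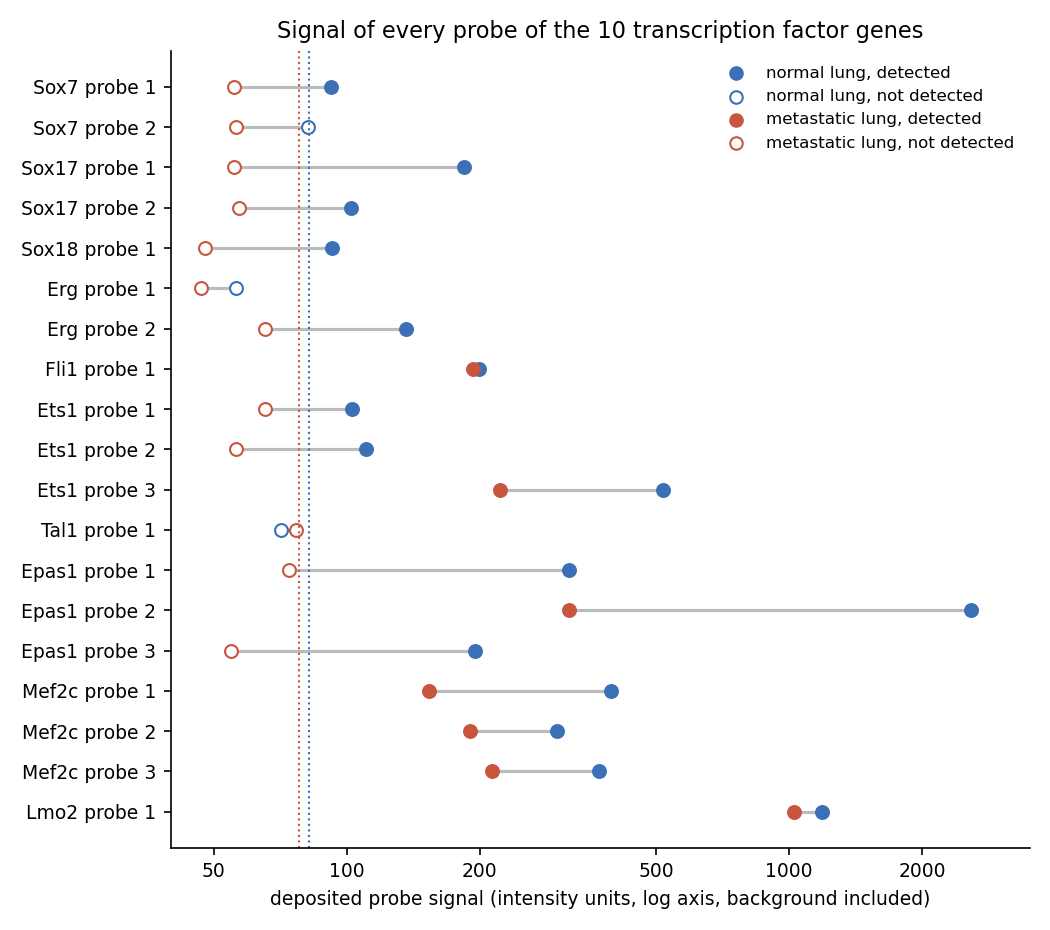
Deposited signal (intensity units, log axis, background included) of each of the 19 probes on the normal-lung array (blue) and the metastatic-lung array (red). Filled points were detected, open points were not, and dotted lines mark the faintest detected probe of each array (82.2 and 78.0). The pairs of Fli1 and Lmo2 lie close together, while the red points of all Sox and Erg probes are open.

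By the measured ratio, 6 of the 10 genes were detected in the normal-lung cells and lower by 2-fold or more in the metastatic-lung ones, and 0 were at least 2-fold higher. Of all 16590 genes, 4.98% were called lower by this rule and 2.89% higher. With genes detected on 1 array counted at their bound, 4 of the 10 genes were lower by 2-fold or more, against 4.00% of all genes. Sox7, Sox18, Sox17 and Erg passed the detection filter only through the array on which they were bright, so that a lower ratio was built into their passing: of the 820 genes of that kind, 41.6% were called lower by the measured ratio and 21.7% at their bound. Among the 5 genes detected on both arrays, Epas1 and Ets1 were called lower, against 7.02% of all genes detected on both arrays. The median log2 ratio was -1.27 over the 9 detected factors, -0.95 with bounds, and 0.01 over all 8128 detected genes. This comparison is unmatched: 4 of the 9 factors, but 820 of the 8128 genes, were detected on the normal-lung array alone. Among genes detected on both arrays, the median was -0.95 over 5 factors and 0.05 over 6904 genes. All 9 had a ratio below 0, which the filter built in for 4 of them, and Fli1 was at -0.01. Of all detected genes, 49.0% had a ratio below 0.

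Since no replicate arrays exist, the only measure of error is the spread between probes of 1 gene. Over 1177 genes with exactly 2 probes detected on both arrays, the log2 ratio had an SD of 0.25 per probe, and in 95% of these genes the probes differed by no more than 0.72. This spread covers neither animals, sorting nor amplification. In order of the log2 ratio, the factors detected on both arrays were Epas1 (-3.28), Ets1 (-1.42), Mef2c (-0.95), Lmo2 (-0.34) and Fli1 (-0.01). The gap of 1.85 between Epas1 and Ets1 was larger than the probe spread. The gaps between the next neighbours were 0.47, 0.60 and 0.33, all within it, but Ets1 and Lmo2 were apart by 1.08 and Mef2c and Fli1 by 0.94.

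**Figure D2:**
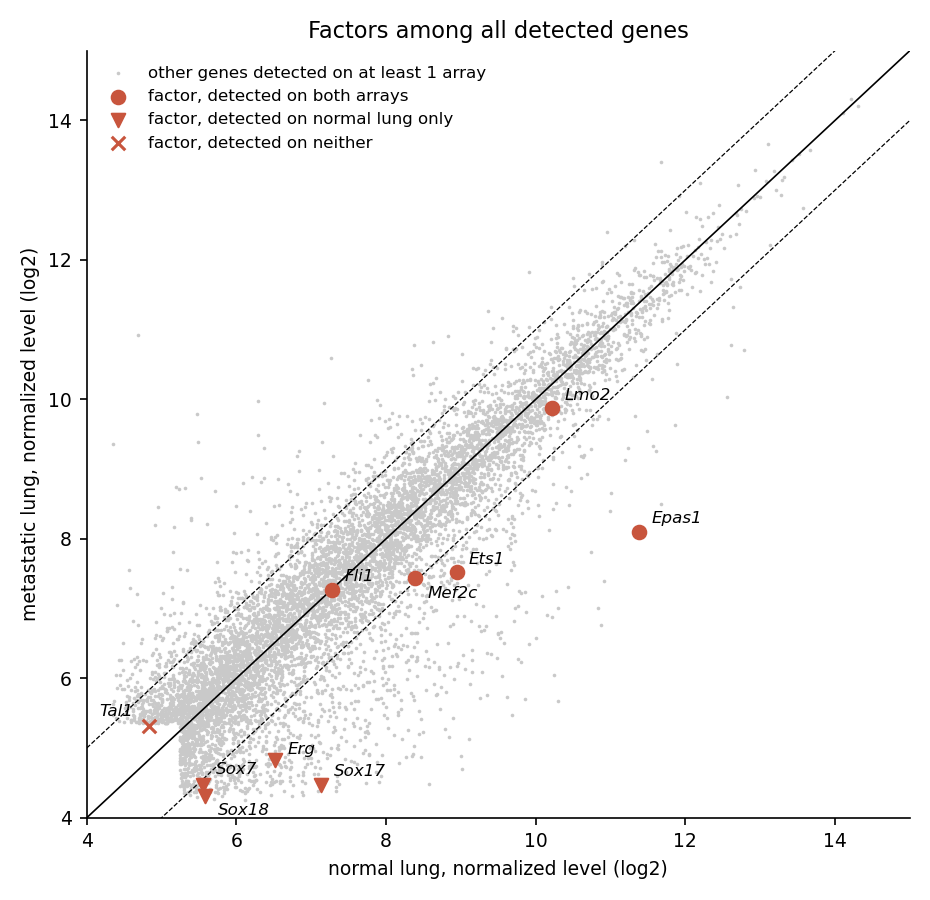
Normalized level (log2) of each gene on the normal-lung array (horizontal) and the metastatic-lung array (vertical). Grey points are the other genes detected on at least 1 array, the solid line marks equal levels and dashed lines mark 2-fold differences. Epas1 lies at 11.38 and 8.10, far below the line, whereas Fli1 lies at 7.28 and 7.27 on it.

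Sox17 was the SOXF gene with a bound above 2-fold. SOX17 is the factor of this group most tied to arterial endothelium. Its brighter probe had a normal-lung signal of 184 and a metastatic-lung signal of 55.5. Its other probe had a signal of 102 and 57.2. Both probes were detected in normal lung and neither in metastatic lung, where the detection p was 0.353 and 0.264. The bounds from the probes were 3.42-fold and 1.40-fold lower.

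Sox18, whose mutations disturb blood and lymphatic vessels in mice, was measured by 1 probe. Its signal was 92.7 in normal lung, with a detection p of 0.00125, and 47.8 in metastatic lung, with a detection p of 0.880. The measured log2 ratio was -1.27, but the gene was so dim that the bound was 1.17-fold. Sox7, which overlaps with its relatives in vessel growth, had probes with signals of 92.0 and 81.9 in normal lung and of 55.5 and 56.2 in metastatic lung. Only the first was detected, with a detection p of 0.00501 in normal lung, and the second had a p of 0.01003, just outside the threshold. The bound for Sox7 was 1.15-fold. For Sox7 and Sox18 the array therefore shows a signal above background in the normal-lung cells and none in the metastatic-lung cells, without a usable size of the difference. In all, 4 of 5 SOXF probes were detected in normal lung and 0 in metastatic lung, against 42.6% and 40.9% of all probes. Apart from the brighter Sox17 probe, those detected had signals of 92.0, 92.7 and 102, near the faintest detected signal of 82.2. Of 12 other SOX genes with probes, such as Sox4, Sox9 and Sox13, none was detected on either array.

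Among the ETS genes, Erg, Ets1 and Fli1 did not move alike. Erg, which maintains endothelial identity and is among the more endothelium-restricted ETS genes in the adult, had a normal-lung signal of 136 and a metastatic-lung signal of 65.3 on its brighter probe. The detection p was 0 and 0.0689, and the bound was 2.23-fold lower. The other Erg probe was at background on both arrays, with signals of 56.3 and 46.9, so that Erg rests on 1 probe.

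Ets1, a factor of endothelium and of lymphocytes, had 3 probes. The brightest, annotated to another RefSeq transcript than the others, had a normal-lung signal of 519 and a metastatic-lung signal of 223, a log2 ratio of -1.42. The dimmer Ets1 probes had signals of 103 and 110 in normal lung and 65.4 and 56.3 in metastatic lung, where neither was detected, with measured log2 ratios of -1.02 and -1.55. These dimmer probes passed the filter only through the normal-lung array, and their bounds were 1.41-fold and 1.61-fold lower. The measured ratios of all 3 Ets1 probes were below 0 and spanned 0.53 on the log2 scale. Only the brightest probe was detected on both arrays. Fli1, an ETS factor of endothelium, megakaryocytes and other blood cells, had a normal-lung signal of 199 and a metastatic-lung signal of 192. Its log2 ratio of -0.01 lay near the median of genes detected on both arrays, of which 45.02% had a ratio as low or lower. Fli1 was well above background on both arrays, so dimness does not limit this value, although it comes from a single probe.

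The 21 other ETS genes with probes included 12 detected ones, of which 2 were at least 2-fold lower and 0 higher, with a median log2 ratio of 0.31. Etv5, which acts in alveolar type II cells, was 2.91-fold lower and Spib, a factor of B cells and plasmacytoid dendritic cells, 2.18-fold lower. The log2 ratio was 0.50 for the repressor gene Etv6, 0.47 for Elf1 and 0.43 for the repressor gene Erf. Etv3 was detected on the metastatic-lung array only, at least 1.52-fold higher.

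TAL1 and LMO2 work in 1 complex in blood and endothelial progenitors, but the genes could not be compared here. Tal1 had a normal-lung signal of 71.2 and a metastatic-lung signal of 76.8 on its single probe. The detection p was 0.0388 and 0.01003, both above the threshold, so no fold is given for Tal1. Lmo2 had a normal-lung signal of 1184 and a metastatic-lung signal of 1025, both far above background. Its log2 ratio was -0.34 (1.27-fold lower), less than the 2-fold used for a call and within the spread between probes.

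Among 19 partners and relatives of this complex with probes, 14 were detected, with a median log2 ratio of -0.37. By the measured ratio 3 were at least 2-fold lower, 2 with bounds, and 0 were higher. Gata2, the GATA factor that joins TAL1 and LMO2 in endothelial and progenitor cells, was 2.50-fold lower. Cbfa2t3, which encodes the corepressor ETO2, was 2.08-fold lower by 1 of its 3 probes, the only one detected. The adaptor gene Ldb2 had a measured log2 ratio of -1.21 and was at least 1.29-fold lower. Lyl1, the closest relative of Tal1, was detected in normal lung only and was at least 1.79-fold lower. The log2 ratio was 0.92 for Runx1, a blood cell factor, and -0.60 for the E-protein gene Tcf12. Gata1, Gata3, Lmo3, Tal2 and Zfpm1 were detected on neither array.

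Epas1 had the lowest ratio of the 5 factors detected on both arrays. The measured ratios of its 3 probes lay within 0.48 on the log2 scale, but only the brightest probe was detected on both arrays. The brightest had a normal-lung signal of 2579.8 and a metastatic-lung signal of 319. The next had signals of 318 and 73.9, and the dimmest 195 and 54.7, and neither of these was detected in metastatic lung. Their folds were 9.68 for the brightest, at least 6.86 for the next and at least 3.71 for the dimmest. Only 0.275% of the genes detected on both arrays had a ratio as low as that of Epas1.

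Hif1a, which encodes the other main oxygen-regulated subunit, differed in the opposite direction. Its signal was 194 in normal lung and 497 in metastatic lung, 2.98-fold higher. It was the only one of 8 detected genes of the hypoxia-inducible factor pathway list to be called, and the list's median log2 ratio was 0.22. Egln3, a gene of the prolyl hydroxylases that mark these factors for destruction, had a log2 ratio of 0.71. The log2 ratio was 0.57 for Arnt, the shared partner subunit, 0.37 for the ubiquitin ligase gene Vhl, -0.08 for Egln1 and 0.07 for Egln2.

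Mef2c was detected on both arrays by all 3 of its probes, and all 3 were lower in the metastatic-lung cells. Their signals were 395, 299 and 372 in normal lung and 153, 190.04 and 213 in metastatic lung. The log2 ratios were -1.62, -0.77 and -0.95, so that 1 of 3 probes passed the 2-fold line, and the third, brightest on average, gives the value of -0.95 used above. They spanned 0.85 on the log2 scale, all below 0.

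Among 12 MEF2 relatives and regulators, 9 were detected, 2 were lower and 1 higher, with a median log2 ratio of -0.04. Klf2 and Klf4, flow-responsive genes downstream of MEF2 factors in endothelium, were 3.08-fold and 2.17-fold lower. The class II histone deacetylase gene Hdac5, whose product holds MEF2 factors in check, was 2.09-fold higher. The log2 ratio was -0.47 for Mef2a, and 0.50 for Map2k5, a kinase gene upstream of MEF2 factors. Mef2d was detected on the metastatic-lung array only, at least 1.09-fold higher.

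**Figure D3:**
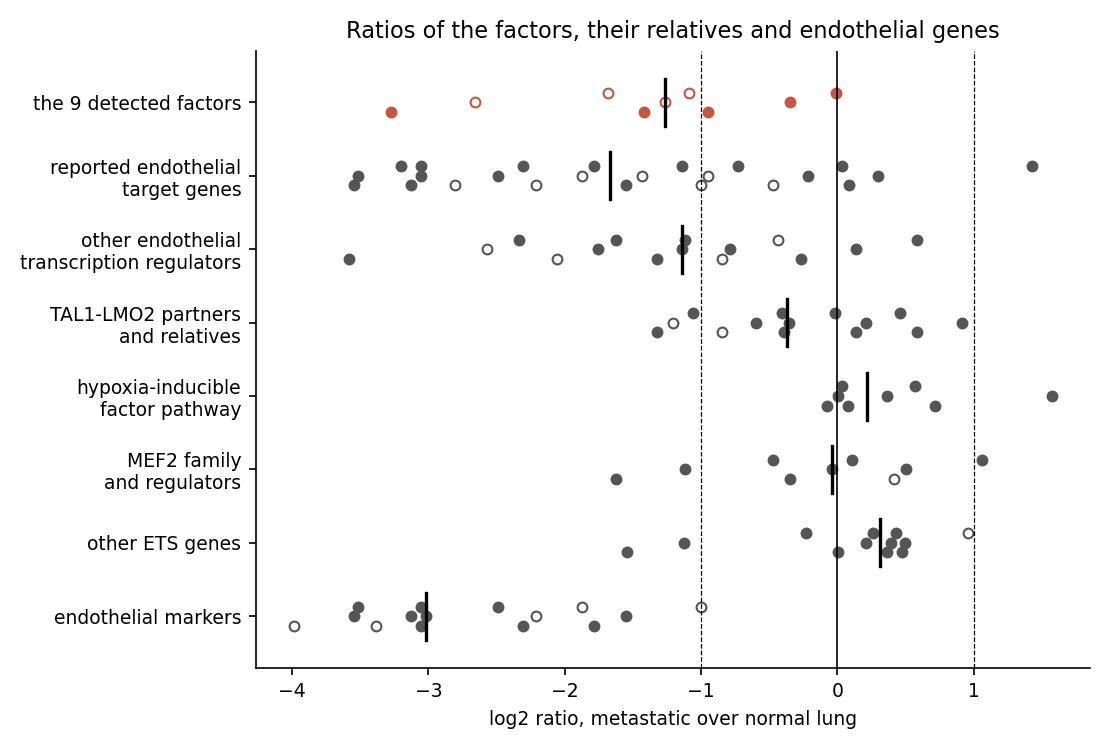
Log2 ratio (metastatic over normal lung) of each detected gene, for the 9 detected factors (red) and for lists of related genes (grey), with a black bar at each median. Filled points were detected on both arrays and open points on 1, and dashed lines mark 2-fold differences. The endothelial markers centre on -3.02, the factors on -1.27 and the other ETS genes on 0.31.

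Of 22 other transcription regulators known from endothelium with probes, 15 were detected, 9 were at least 2-fold lower and 0 higher, with a median log2 ratio of -1.14. Hey1, a Notch target that acts in arterial cells, was 11.95-fold lower, and Nr2f2, the venous factor gene also called COUP-TFII, at least 5.15-fold. Bcl6b was 5.05-fold lower, Zeb1 3.37-fold and Tbx3 at least 2.33-fold. Among the 6 detected ones that were not called, named after their values were seen, the log2 ratio was -0.79 for Hhex, -0.26 for Foxo1, 0.14 for Id1 and 0.58 for Id3. Foxc1, Foxc2, Hey2, Heyl, Hlx, Meox2 and Prox1, the last of which drives lymphatic identity, were detected on neither array. Klf2, Klf4, Gata2, Lyl1, Id1 and Id3 stand in this list and in 1 of the lists above.

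Of 29 endothelial genes that are reported as targets of these factors, 24 were detected. By the measured ratio 15 were at least 2-fold lower, 13 with bounds, and 1 was higher. The median log2 ratio was -1.67 (-1.35 with bounds). Robo4, a vascular guidance receptor, was 11.7-fold lower, and Ramp2, part of the adrenomedullin receptor, 11.5-fold. Notch4 was 9.17-fold lower, the junction gene Esam 8.72-fold, and Tek, the angiopoietin receptor TIE2, and Egfl7 8.31-fold each. The 1 higher gene was Vegfa, the growth factor and hypoxia target, which many cell types make. Among the 8 detected genes not called, those detected on both arrays are named here after their values were seen. Their log2 ratios were 0.29 for Nos3, 0.08 for Notch1, 0.03 for Procr, -0.22 for Vcam1 and -0.73 for Thbd. Nos3 rests on 1 dim probe, with signals of 89.8 in normal and 92.1 in metastatic lung, and its other probes were detected on neither array.

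Markers of several cell types also differed between the arrays, lower for some types and higher for others. In bulk RNA, fewer cells of a type and less RNA per cell cannot be told apart. Of 18 endothelial markers with probes, 15 of them also in the target list, 15 were detected. By the measured ratio 14 were at least 2-fold lower, 13 with bounds, and 0 were higher. The median log2 ratio was -3.02, and the summed background-corrected signal of the list was 7223 in normal lung and 771 in metastatic lung. Cdh5, Eng and Tie1, which define endothelium, were detected on neither array. Tmem100, at least 13.5-fold lower, and Plvap, at least 7.04-fold lower, were also among the markers. The part of the endothelial markers' difference in the ratios of the factors was not tested.

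Other cell types that use some of the factors had lower markers as well. Beside Ets1 and Mef2c stand the lymphocyte markers. Of 13 with probes, 7 were lower by the measured ratio, 6 with bounds, and 0 higher, with summed signals of 2690.4 and 1042. Cd28 (at least 3.95-fold), Cd3d (4.82-fold), Cd79b (3.76-fold) and Cd3e (3.75-fold) were lower, while Cd5, Cd79a and Ms4a1 were detected on neither array. Beside Epas1 stand the alveolar epithelial markers, with 5 of 10 lower, 0 higher and summed signals of 4158 and 1808. Slc34a2 was 3.15-fold lower and Sftpa1 2.56-fold, and Lamp3 and Sftpb were detected on neither array.

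Beside Fli1, Tal1 and Lmo2 stand the megakaryocyte, platelet and erythroid markers. Of 9 with probes, 4 were lower by the measured ratio and 2 with bounds. None was higher, and the summed signals were 1739 and 787. The platelet gene Gp9, named after its values were seen, had signals of 675 and 644 and a log2 ratio of -0.19. Ppbp was 6.47-fold lower and Pf4 4.17-fold, and the defining genes Gata1, Gp1bb, Itga2b and Klf1 were detected on neither array. Of 8 mast cell and basophil markers, whose cells also use Tal1 and Lmo2, 1 was higher and 0 lower, with summed signals of 2521 and 3456. The 1 called, Mcpt8, was 3.72-fold higher. The other detected ones differed by less than 2-fold, with log2 ratios of 0.64 for Cpa3 and 0.27 for Hdc. Fcer1a was detected in metastatic lung only, at least 1.16-fold higher. Cma1, Ms4a2, Tpsab1 and Tpsb2 of that list were detected on neither array. Of 14 neutrophil and precursor markers, 10 were higher and 0 lower, with summed signals of 4519 and 9381, and Mpo was at least 51.3-fold higher. The other 4, named after their values were seen, did not share a direction. Their log2 ratios were 0.65 for Mmp9, 0.10 for Csf3r, -0.23 for Cxcr2 and -0.85 for S100a9. Monocyte and macrophage markers were all detected on both arrays, with 5 of 10 lower, 1 higher and summed signals of 12972 and 7347. Chil3, with deposited signals of 5414 and 1137, was 5.72-fold lower, Cx3cr1 4.44-fold and Mrc1 3.46-fold, while F13a1 was 4.32-fold higher. Among those not called, named after their values were seen, the log2 ratio was 0.46 for Ccr2, 0.29 for Fcgr1, 0.04 for Lyz2 and -0.30 for Adgre1. The part of these cell types in the ratios of the factors was not tested.

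The sort itself was read through S100a4, whose signal was 743 in normal lung and 1122 in metastatic lung (1.43-fold higher). Of 12 fibroblast markers, 8 were detected and all 8 were at least 2-fold lower by the measured ratio, 7 with bounds. Among them were Inmt (5.95-fold), Pdgfra (5.21-fold), Thy1 (4.31-fold) and Dpt (4.15-fold). The summed fibroblast signals were 2695 and 556, and Col1a1, Lum, Mfap5 and Pdgfrb were detected on neither array, although the cells are labelled as stromal.

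Promoter sequences from RefSeq (GRCm38.p6) were at hand for 3 of the 10 genes, with 8 start sites in all: Erg (lower), Mef2c (lower in every probe) and Tal1 (not detected). The 250 bases before a start are shown to let the binding cores of the factors' own families be read in their genes. Capitals mark GGAA, the ETS core, and ACAAT, the SOX core, on either strand (TTCC and ATTGT on the other strand), and these cores do not overlap in the windows shown. All 3 Erg windows and the outermost window of Mef2c and of Tal1 are given 5′ to 3′ in the direction of the gene.
Erg, outermost start, chr16:95586594-95586843, minus strand: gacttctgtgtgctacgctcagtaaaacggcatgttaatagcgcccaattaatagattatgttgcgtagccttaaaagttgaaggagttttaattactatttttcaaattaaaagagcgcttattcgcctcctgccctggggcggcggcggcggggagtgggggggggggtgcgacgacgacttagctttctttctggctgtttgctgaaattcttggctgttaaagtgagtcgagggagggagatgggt
Erg, middle start, chr16:95530366-95530615, minus strand: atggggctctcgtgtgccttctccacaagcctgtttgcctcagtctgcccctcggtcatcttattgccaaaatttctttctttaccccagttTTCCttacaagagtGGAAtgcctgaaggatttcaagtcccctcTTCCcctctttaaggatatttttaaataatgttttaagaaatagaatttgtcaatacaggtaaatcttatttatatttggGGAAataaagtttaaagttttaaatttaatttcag
Erg, innermost start, chr16:95459349-95459598, minus strand: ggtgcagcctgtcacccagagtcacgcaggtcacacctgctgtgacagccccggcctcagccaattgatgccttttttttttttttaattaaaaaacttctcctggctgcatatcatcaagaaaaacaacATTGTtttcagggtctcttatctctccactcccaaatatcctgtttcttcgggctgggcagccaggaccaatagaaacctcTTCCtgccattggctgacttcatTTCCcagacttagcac
Mef2c, outermost start, chr13:83503784-83504033, plus strand: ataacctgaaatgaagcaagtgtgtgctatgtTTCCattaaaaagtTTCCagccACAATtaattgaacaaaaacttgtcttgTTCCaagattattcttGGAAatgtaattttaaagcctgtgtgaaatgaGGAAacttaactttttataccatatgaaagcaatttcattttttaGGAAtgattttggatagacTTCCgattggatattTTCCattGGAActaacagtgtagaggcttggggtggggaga
Tal1, outermost start, chr4:115056176-115056425, plus strand: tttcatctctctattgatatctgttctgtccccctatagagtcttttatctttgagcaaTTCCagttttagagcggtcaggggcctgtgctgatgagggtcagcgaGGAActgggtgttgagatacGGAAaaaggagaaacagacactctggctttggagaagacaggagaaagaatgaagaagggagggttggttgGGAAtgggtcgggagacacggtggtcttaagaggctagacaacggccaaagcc

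The outermost Erg window held neither core, the middle one 4 GGAA cores, and the innermost 2 GGAA cores, at 39 and 16 bases before the start, and 1 ACAAT core, at 120 bases before it. The outermost Mef2c window held 9 GGAA cores and 1 ACAAT core, and that of Tal1 4 GGAA cores. GGAA is common: 93.4% of all 32851 promoter windows of this length held it on either strand, against 7 of the 8 windows here. ACAAT was held by 27.7% of all windows and by 2 of the 8. The GATA core, GATA or TATC on the other strand, was held by 53.6% of all windows and by 6 of the 8, and the E-box CANNTG, which reads the same on both strands, by 66.2% and by 3 of the 8. These matches describe letters only, and no binding was measured.

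The ratios of the dim genes depended on how background was treated more than those of the bright genes. Across the 10 alternative settings, the log2 ratio of Epas1 ranged from -3.35 to -2.94, that of Ets1 from -1.50 to -1.23, and that of Lmo2 from -0.37 to -0.13. Fli1 ranged from -0.06 to 0.06, with a sign that turned when arrays were centred on their medians. Mef2c ranged from -1.01 to -0.79. In the 9 settings that keep genes detected on 1 array, Sox17 ranged from -4.11 to -1.27 and was at -1 or lower in all 9. Erg ranged from -2.50 to -0.72 and was at -1 or lower in 5 of 9. Sox18 ranged from -2.74 to -0.47, with 5 of 9 at -1 or lower, and Sox7 from -2.16 to -0.34, with 4 of 9.

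**Figure D4:**
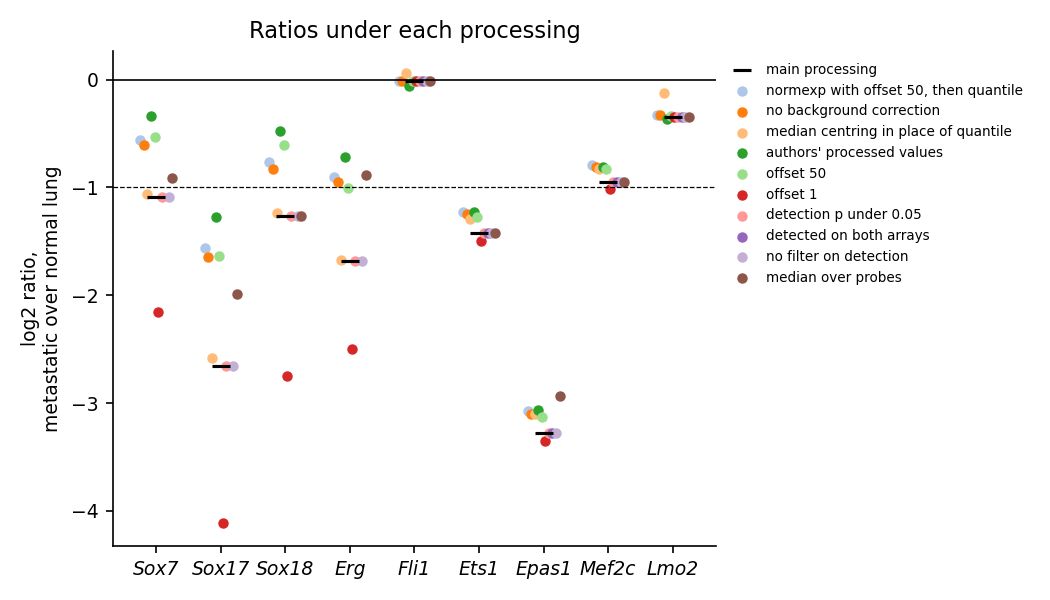
Log2 ratio (metastatic over normal lung) of the 9 detected factors under the processing used here (black bars) and under each alternative (coloured points). The dashed line marks a 2-fold lower level. Epas1, Sox17 and Ets1 stay below it throughout, while Sox7, Sox18 and Erg cross it, as does Mef2c in 1 of 10 alternatives.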

How the data were processed

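Sorted S100A4+ cells were measured with 1 Illumina bead array per group, 25697 probes each. Per the file headers, the authors deposited an intensity and a detection p-value per probe and array. The intensities are linear and were neither background-subtracted nor normalized between arrays. The submitters' processing notes name BeadStudio, without a version. Per the labels, Qiagen's RNeasy Plus Micro kit served for extraction and NuGEN's WT-Ovation Pico kit for amplification. A second deposited table holds processed intensities with medians of 87.2 (normal) and 96.0 (metastatic). Each column is a straight-line rescaling of its array (slopes 1.08 and 0.942, constants 9.31 and 33.8), so it is linear and not centred, by a method that stays unknown. It was used only as an alternative.

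Detected probes made up 42.6% of the normal-lung and 40.9% of the metastatic-lung array, with median signals of 72.2 and 66.1. Intensities were corrected by neqc (limma 3.58.1, R 4.3.3) with background estimated from the detection p-values and an offset of 16, quantile-normalized and taken to log2. The offset understates ratios of dim genes. Further steps used pandas 2.3.3 and numpy 2.4.6 under Python 3.11.15, with matplotlib 3.10.9 for plots. The procedure was tested on simulated arrays.

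Probe names came from the platform's 2016 annotation, updated by gene identifier to RefSeq symbols of GRCm38.p6. Of the named probes, 23962 matched by identifier and 9 by accession, and 7 kept the platform symbol. A further 1719 probes have no name here. The probe of highest mean level stands for its gene. A call needs a log2 ratio of at least 1 in size and a detection p below 0.01 on the brighter array. Bounds use the lowest detected level of the dim array (5.25 in normal lung and 5.36 in metastatic lung, log2). With 1 array per group no test was made, and the number of arrays limits the precision. Summed signals of marker lists are normalized levels less the offset.

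The members, lists and rules were chosen with earlier results of these data known. Every probe of the 10 genes is given, with up to 6 genes of each related list and 4 of each marker list by size of ratio. With 2 arrays a pattern is a single ratio, so no likeness between genes was computed. Alternatives changed the background correction, the normalization, the offset, the detection filter, the choice of probe and the source of values.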

Additional observations from a re-analysis of the deposited data

How the results depend on the processing

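No paired analysis was possible because each group has 1 array, and no replicate could be left out for the same reason. Changes were set against the SD of 0.25 between probes. With 6 of the 10 genes at least 2-fold lower in the processing used here, 3 were lower with normexp and an offset of 50 together, 3 with no background correction, 3 in the authors' processed values, 2 with detection asked on both arrays, 4 with an offset of 50 alone, 4 with the median over probes and 7, with Mef2c added, with an offset of 1. The median log2 ratio of the detected factors, -1.27, was -0.79, -0.83, -0.72, -0.95, -0.83, -0.95 and -2.16 in the same order. By their construction normexp with an offset of 50, no background correction and the offset of 50 alone leave a larger constant in the signals. The authors' processed values keep the background and have unequal constants, 9.31 for normal and 33.8 for metastatic lung. The filter on both arrays removes 4 genes. None of the 10 alternatives made a factor at least 2-fold higher or turned the sign of a factor called lower. Over all genes, 826 were lower and 479 higher. The counts were 464 and 202 with normexp and an offset of 50, 492 and 211 with no background correction, 421 and 159 in the authors' processed values, 513 and 239 with an offset of 50 alone, 1124 and 742 with an offset of 1, and 485 and 350 with detection on both arrays. Centring on medians moved the median of all detected genes by 0.10. Signals near the detection threshold limit Sox7, Sox18 and Tal1.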

Other observations

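Some endothelial and myeloid genes that would be looked for beside these factors were near or below the detection threshold. Most listed markers were not: 15 of 18 endothelial, all 10 monocyte and macrophage and all 14 neutrophil and precursor markers were detected. The single probe of Tie1, a receptor gene of endothelium, had a signal of 81.9 in normal lung (detection p 0.01003) and 56.9 in metastatic lung. The probe of Cdh5, the endothelial cadherin gene, had signals of 81.8 (detection p 0.0113) and 51.7, and that of Eng, the endoglin gene, 68.2 and 50.1. The single probe of Spi1, the ETS factor gene of myeloid cells, had signals of 62.2 and 56.7 on arrays whose macrophage gene Lyz2 had signals of 2717 and 3097.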
